A study of Mus musculus with 4 samples.

Results

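The 10 genes described here encode nuclear-encoded factors that run gene expression inside mitochondria. Of them, 7 act in mitochondrial translation (Mtif2, Mtif3, Tufm, Tsfm, Gfm1, Gfm2 and Mrrf) and 3 act in the expression of mitochondrial DNA (Tfam, Polrmt and Lrpprc). They were chosen by name, and all 10 were found among the 16442 genes of the table. The measurements are ribosome footprints, the stretches of mRNA that ribosomes shield from nuclease, with RNA levels from the input of the same lysates. The cells are leukaemia stem cells, which propagate a leukaemia, from bone marrow of C57BL/6 mice with leukaemia. The groups are WT and KO of Rreb1, a zinc finger transcription factor, with 2 libraries in each. The genotype of KO replicate 2 is entered as Rreb2-KO, and the library was placed with KO by its title. The leukaemia model, the age of the mice, how Rreb1 was removed and which animals gave which library are not stated in the labels. Nothing ties a library to an animal, and the p-values reflect library-to-library spread only, which may be technical.

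Mitochondria keep their own ribosomes, which translate the few proteins encoded by mitochondrial DNA, all of them core parts of the respiratory chain and ATP synthase. The factors that serve those ribosomes are themselves made in the cytosol from nuclear genes and then imported, so the footprints reported for them are footprints of cytosolic ribosomes. TFAM packages mitochondrial DNA and starts its transcription, POLRMT is the RNA polymerase, and LRPPRC stabilises the mitochondrial mRNAs.

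Promoter windows of 300 bases, from 250 before to 50 after the annotated start (RefSeq, GRCm38.p6), were at hand for 9 of the 10 genes. The motif CCGGAAG, read on both strands, is the core bound by ETS factors such as GABP, a known regulator of nuclear genes for mitochondria. It was present in 5 of the 9 windows, those of Tufm, Gfm1, Mtif2, Tfam and Polrmt, against 8.86% of all 32851 windows and 16.6% of the 9690 windows with a GC content of at least 60%. It was also present for 26 of 64 other genes of mitochondrial gene expression, those with a window in the first 3 lists described below. The motif is thus not particular to the 10 genes. The median GC content was 60% in the 9 windows and 52.7% in all windows. The windows of Tsfm, Gfm1, Mrrf and Polrmt had 51.7 to 52.7%, below the cut of 60%. Of the windows that met the cut, those of Tufm, Mtif2 and Tfam held CCGGAAG and those of Gfm2 and Lrpprc did not. Only these compare directly with the 16.6%. The longer CCGGAAGT, which contains the first motif, was in 3 windows, those of Tufm, Gfm1 and Tfam, against 3.89% of all windows and 14 of the 64 other genes. GCGCATGCG, from the NRF1 consensus, was in none of the 9 windows and in 1.75% of all. GCATGCGC, which lies within its reverse complement, was in the window of Polrmt and in 2.71% of all. TGACGTCA, the cAMP response element, was in none of the 9 and in 1.79% of all. All motifs were read on both strands. These are matches of letters only. The windows of the 3 genes with the longer motif are shown because they hold the gene with the highest RNA level of the 10 (Tufm) and the one whose RNA rose (Tfam), with CCGGAAG in capitals. They lie at chr7:126487105-126487404 on the plus strand (Tufm), chr3:67429865-67430164 on the plus strand (Gfm1) and chr10:71237995-71238294 on the minus strand (Tfam). The motif begins 2 bases before the annotated start in Tufm, 1 base before it in Gfm1 and 47 bases before it in Tfam.
Tufm: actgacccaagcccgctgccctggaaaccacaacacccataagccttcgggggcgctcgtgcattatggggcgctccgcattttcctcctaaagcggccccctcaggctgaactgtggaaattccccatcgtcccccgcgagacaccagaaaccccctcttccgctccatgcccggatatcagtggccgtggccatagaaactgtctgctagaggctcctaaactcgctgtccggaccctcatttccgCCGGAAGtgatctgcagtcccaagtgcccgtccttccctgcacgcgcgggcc
Gfm1: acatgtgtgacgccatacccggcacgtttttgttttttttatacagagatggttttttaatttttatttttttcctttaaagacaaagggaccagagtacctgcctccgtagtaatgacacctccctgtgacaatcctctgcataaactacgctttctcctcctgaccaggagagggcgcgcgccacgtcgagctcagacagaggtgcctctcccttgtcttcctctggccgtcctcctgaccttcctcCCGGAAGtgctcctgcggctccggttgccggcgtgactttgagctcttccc
Tfam: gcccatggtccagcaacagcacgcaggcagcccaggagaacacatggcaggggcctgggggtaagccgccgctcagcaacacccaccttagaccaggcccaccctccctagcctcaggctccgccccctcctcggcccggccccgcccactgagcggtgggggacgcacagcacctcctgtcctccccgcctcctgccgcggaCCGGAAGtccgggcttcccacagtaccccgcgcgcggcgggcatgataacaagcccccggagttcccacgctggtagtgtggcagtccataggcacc

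Assigned footprint reads numbered 878068 and 656249 in the WT libraries (replicates 1, 2) but 364087 and 274183 in the KO-labelled ones, and depth spanned 3.20-fold. Levels are given as RPKM, reads scaled to a length per gene and to library size. Each series of values runs in the order of replicates 1 and 2. Footprints and RNA were scaled by unlike lengths. In WT replicate 1, 389 RNA reads of Tfam gave 4.58 RPKM and 478 of Polrmt gave 5.34 RPKM, nearly the same worth per read. The lengths implied by their footprint values were 746 and 3621 bases. A ratio of footprints to RNA therefore compares libraries for a gene, but not genes with each other. Depth limits the 10 genes: they held between 6 and 127 footprint reads each in the WT libraries and between 0 and 115 in the KO-labelled ones. Across the 6389 tested genes, which are not independent of each other, the pair of WT libraries correlated at 0.94 in footprints and the KO-labelled pair at 0.782 (Pearson's r), with 0.997 and 0.996 in RNA. Of 11 markers of stem and progenitor cells, 10 had RNA of at least 1 RPKM in every library, the exception being Ly6a. RNA of Rreb1 was 3.29 ± 0.0508 RPKM in WT and 6.51 ± 0.587 RPKM in the KO-labelled libraries (SD, n = 2 each), with footprints of 13.5 ± 0.873 and 10.5 ± 3.30 RPKM (SD, n = 2 each). RNA of the targeted gene thus rose (log2 difference 0.81, SE 0.09, limma adjusted p = 0.000283), while its footprint ranges overlapped. Its TE was lower without overlap, at 3.37 ± 0.164 in WT and 1.56 ± 0.560 in the KO-labelled libraries (SD, n = 2 each), a log2 difference of -1.16 that did not pass (limma adjusted p = 0.343, unadjusted p = 0.0311). These values go in different directions. How Rreb1 was removed is not stated, so its RNA level does not test the label. Every direction below rests on the labels.

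Among the 10 genes, only Tfam changed past the threshold, and only in RNA, which rose from 4.34 ± 0.346 to 6.73 ± 0.524 RPKM (SD, n = 2 each). In footprints 0 of the 8 genes with enough reads for the test passed limma on log2(RPKM + 1), with 0 at an unadjusted p under 0.05 and 0 with limma-voom on reads recovered from the RPKM steps. Of all 6389 tested genes, 1.06% passed in footprints. Tufm and Mrrf had too few reads for the test, whose filter asked for at least 20 CPM (footprint reads scaled to library size alone) in at least 2 libraries. The median log2 difference of the 8 genes, KO-labelled minus WT, was -0.231 in footprints, beside -0.134 for all tested genes. TE, the translational efficiency, divides footprint RPKM plus 1 by RNA RPKM plus 1. In TE 0 of the 8 passed and 0 had an unadjusted p under 0.05, in a fit where 0.0% of all genes passed and 13.0% had an unadjusted p under 0.05 (18.2% in footprints). The median TE difference was -0.195, beside -0.152 for all tested genes. In footprints the groups did not overlap for 1 of the 8 genes upward and 3 downward, beside 20.5% and 32.1% of all tested genes, 52.5% in all. In TE this was so for 1 upward and 2 downward, beside 15.6% and 32.3%, 48.0% in all, and in RNA for 3 upward and 2 downward, beside 44.4% and 37.6%, 82.0% in all. With 8 genes these counts carry little weight. Mtif3, among the lower genes in footprints and TE, passed the filter through the WT libraries alone, which bears on these counts and on the medians.

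**Figure D1:**
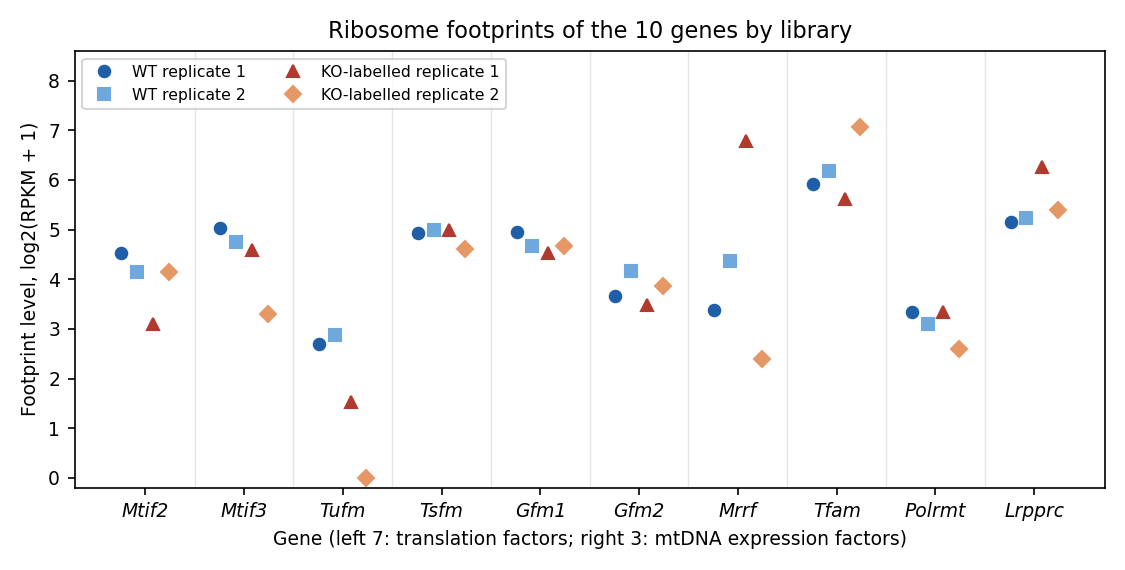
Footprint level as log2(RPKM + 1) of each of the 10 genes in each of the 4 libraries; each point is 1 library. Tufm is the lowest gene in the WT libraries, at 5.5 and 6.31 RPKM, and Mrrf spans from 4.29 to 110 RPKM between the KO-labelled libraries.

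Initiation on mitochondrial ribosomes uses IF2, which brings the initiator tRNA, and IF3, which keeps the subunits apart. Mtif2, the gene of IF2, had footprints of 21.9 and 16.8 RPKM in WT and of 7.56 and 16.7 RPKM in the KO-labelled libraries, from 42, 24, 6 and 10 reads. KO replicate 2 lay just under the lower WT library and KO replicate 1 well below both, so the groups did not overlap. On the log2(RPKM + 1) scale they differed by -0.71 with an SE of 0.49 (limma adjusted p = 0.501, 95% interval -1.99 to 0.56), by -0.188 without KO replicate 1 and by -1.24 without KO replicate 2. RNA of Mtif2 was 7.11 and 5.95 RPKM in WT and 7.0 and 7.25 RPKM in the KO-labelled libraries, and these ranges overlapped. TE was 2.83 and 2.56 in WT and 1.07 and 2.15 in the KO-labelled libraries, a log2 difference of -0.83 with an SE of 0.45 (limma adjusted p = 0.48), or -0.324 and -1.33 without KO replicate 1 and 2.

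Mtif3, the gene of IF3, had the most negative footprint and TE differences of the 8 tested genes. Its footprints were 31.6 and 25.8 RPKM in WT and 23.2 and 8.81 RPKM in the KO-labelled libraries, from 23, 14, 7 and 2 reads. The groups did not overlap, but the KO-labelled libraries stood 2.64-fold apart (exact 95% interval 0.502 to 26.0, counting error only). As a log2 difference this came to -0.94 with an SE of 0.54 (limma adjusted p = 0.431), which was -1.59 without KO replicate 1 and -0.287 without KO replicate 2. The gene passed the filter through the WT libraries alone, which bears on its direction. Its RNA was 5.69 and 6.42 RPKM in WT and 7.41 and 6.46 RPKM in the KO-labelled libraries. KO replicate 2 lay just above WT replicate 2, so the RNA groups touched without overlapping. RNA was higher in KO without overlap for 44.4% of all tested genes. Neither the RNA nor the footprint difference of Mtif3 passed the test. Its TE was 4.88 and 3.61 in WT and 2.88 and 1.32 in the KO-labelled libraries, a log2 difference of -1.11 with an SE of 0.49 (limma adjusted p = 0.427, unadjusted p = 0.0744), or -1.67 and -0.543 without KO replicate 1 and 2.

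Elongation uses EF-Tu, which delivers aminoacyl-tRNAs, EF-Ts, which recharges EF-Tu with GTP, and EF-G1, which moves the ribosome along the mRNA. Tufm, the gene of EF-Tu, stood apart from the other 9 genes because it combined their highest RNA with their lowest footprints in every library. Its RNA was 26.4 and 27.9 RPKM in WT and 28.7 and 26.1 RPKM in the KO-labelled libraries, from 945 to 1123 reads. Its footprints were 5.5 and 6.31 RPKM in WT, from 7 and 6 reads, and 1.89 and 0 RPKM in the KO-labelled libraries, from 1 and 0 reads. Among the 10195 genes whose RNA reached 1 RPKM in each library, Tufm lay at percentiles 77.0 and 78.1 of RNA and 8.84 and 9.49 of TE in the WT libraries. In the KO-labelled libraries it lay at percentiles 78.0 and 76.9 of RNA and 4.39 and 1.84 of TE. High RNA with few footprints was thus seen in all 4 libraries, in WT as in the KO-labelled ones. The TE percentiles of the KO-labelled libraries rest on 1 and 0 reads. With 0 reads, TE in KO replicate 2 is set by the RNA level alone. These 2 percentiles therefore do not show a TE below that of WT. The TE percentiles were not corrected for the unlike lengths of footprints and RNA.

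The WT and KO-labelled libraries did not overlap in Tufm footprints, but the counts could not settle a difference. Pooled reads gave a WT over KO ratio of 5.41, with an exact 95% interval of 0.812 to 230 that covers counting error only. At the mean WT level of 5.90 RPKM, KO replicates 1 and 2 would have held 3.12 and 2.35 reads. The count of 0 in KO replicate 2 allows a level of up to 7.55 RPKM, taken as 3 reads. Deposited TE was 0.237 and 0.253 in WT and 0.0975 and 0.0369 in the KO-labelled libraries, where the last value is the floor that 1 added to a footprint level of 0 gives. With no filter on low genes, the only setting whose fit held Tufm in footprints and TE, its log2 differences were -2.02 with an SE of 0.78 in footprints (limma adjusted p = 0.587) and -2.03 with an SE of 0.55 in TE (limma adjusted p = 0.273, unadjusted p = 0.0252). The authors' deposited table gives Tufm a p of 0.0149, the only one of the 10 under 0.05, in a column that matched an unadjusted one-sided test on untransformed TE. RNA of Tufm differed by 0.01 on the log2 scale with an SE of 0.07 and a 95% interval of -0.18 to 0.20 (limma adjusted p = 0.911). That fit used a filter on RNA, under which 53.3% of 12194 genes passed; with no filter the limma adjusted p was 0.919.

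**Figure D2:**
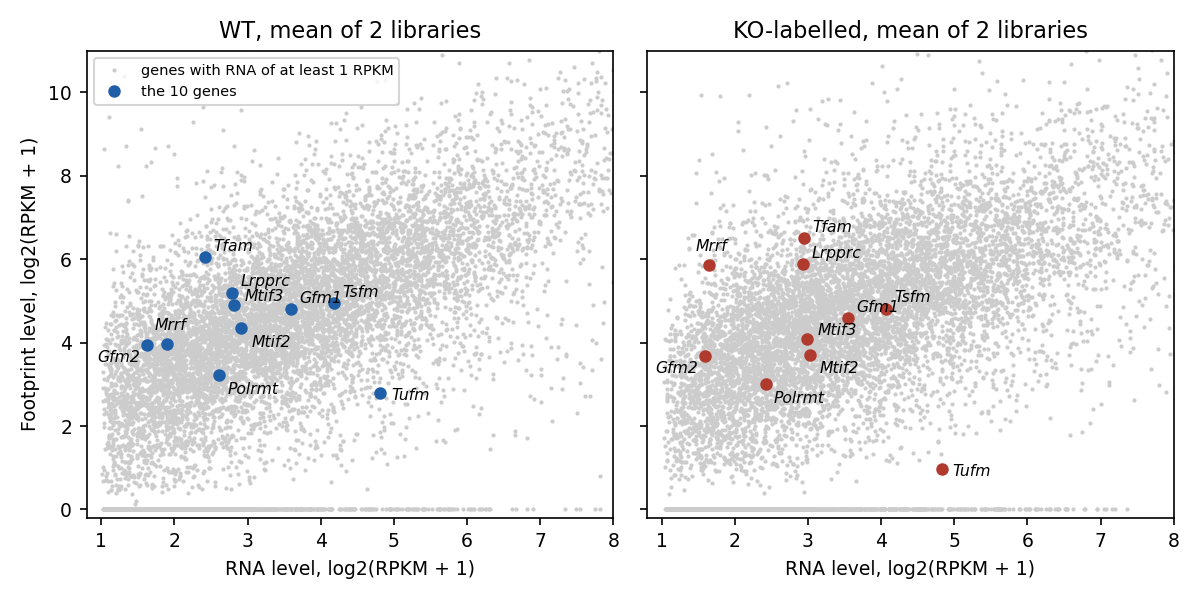
Mean footprint level against mean RNA level, both as log2(RPKM + 1), of the genes with 1 RPKM of RNA or more in each library (grey) and of the 10 genes (coloured), in WT (left) and KO-labelled (right) libraries; 176 and 201 of the 10195 genes lie beyond the axes. Tufm sits at the lower edge at mean footprint levels of 5.90 and 0.947 RPKM, and Tfam near the upper edge at 65.5 and 89.9 RPKM.

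Tsfm and Gfm1, the genes of EF-Ts and EF-G1, had the smallest footprint differences of the 8 tested genes. Tsfm had footprints of 29.3 and 30.6 RPKM in WT and 30.9 and 23.5 RPKM in the KO-labelled libraries, from 32, 25, 14 and 8 reads. KO replicate 1 was the highest library and KO replicate 2 the lowest, so the groups overlapped. The fitted log2 difference of -0.15 had an SE of 0.33 and a 95% interval of -1.0 to 0.71 (limma adjusted p = 0.837). RNA of Tsfm was 17.2 RPKM in both WT libraries and 16.4 and 15.2 RPKM in the KO-labelled ones, a log2 difference of -0.12 with an SE of 0.07 (limma adjusted p = 0.202). TE of Tsfm was 1.67 and 1.74 in WT and 1.84 and 1.51 in the KO-labelled libraries, with overlap. The partners of the EF-Tu and EF-Ts cycle thus lay on opposite sides in the WT libraries: Tufm had the higher RNA level per length and Tsfm the higher footprint level.

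Gfm1 had footprints of 29.8 and 24.3 RPKM in WT and 21.9 and 24.3 RPKM in the KO-labelled libraries, from 59, 36, 18 and 15 reads. KO replicate 2 lay just under WT replicate 2, so the groups touched without overlapping. This gave a log2 difference of -0.21 with an SE of 0.32 (limma adjusted p = 0.763). RNA of Gfm1 was 10.5 and 11.5 RPKM in WT and 10.7 RPKM in both KO-labelled libraries, and TE was 2.67 and 2.02 against 1.96 and 2.16.

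After termination, the recycling factor encoded by Mrrf and EF-G2, encoded by Gfm2, split the ribosome for another round. Mrrf was the most uneven of the 10 genes. Its footprints were 9.37 and 19.7 RPKM in WT, from 7 and 11 reads, and 110 and 4.29 RPKM in the KO-labelled libraries, from 34 reads and 1 read. KO replicate 1 was thus the highest library and KO replicate 2 the lowest, 25.6-fold apart (exact 95% interval 4.30 to 1041, counting error only). With 0.5 read added to each, a gap as large was seen in 3.23% of the 5016 genes with at least 20 reads in the KO-labelled libraries. RNA of Mrrf did not follow, at 2.34 and 1.90 RPKM in those libraries and 2.30 and 3.12 RPKM in WT. No group difference can be read from the footprints of Mrrf: with no filter on low genes the log2 difference was 0.72 with an SE of 1.80 (limma adjusted p = 1.0, and 0.833 with a filter on the mean over libraries). TE followed the footprints, at 3.14 and 5.02 in WT and 33.2 and 1.82 in the KO-labelled libraries.

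Gfm2 had the lowest RNA of the 10 in both group means, at 2.19 and 1.98 RPKM in WT and 2.01 and 2.02 RPKM in the KO-labelled libraries. Its footprints were 11.7 and 16.9 RPKM in WT and 10.1 and 13.5 RPKM in the KO-labelled libraries, from 25, 27, 9 and 9 reads, and the groups overlapped. Their log2 difference was -0.25 with an SE of 0.39 (limma adjusted p = 0.773). TE was 3.98 and 6.00 in WT and 3.70 and 4.79 in the KO-labelled libraries. Summed over the 7 translation factors, footprints took 222 and 218 CPM in WT and 244 and 164 in the KO-labelled libraries, on either side of WT. Mrrf alone gave 93.4 of the 244 CPM in KO replicate 1. Without Mrrf, a sum added after these values were seen, they were 214 and 201 CPM in WT and 151 and 160 in the KO-labelled libraries. Since Mrrf was left out for its value, no direction is read from this sum.

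**Figure D3:**
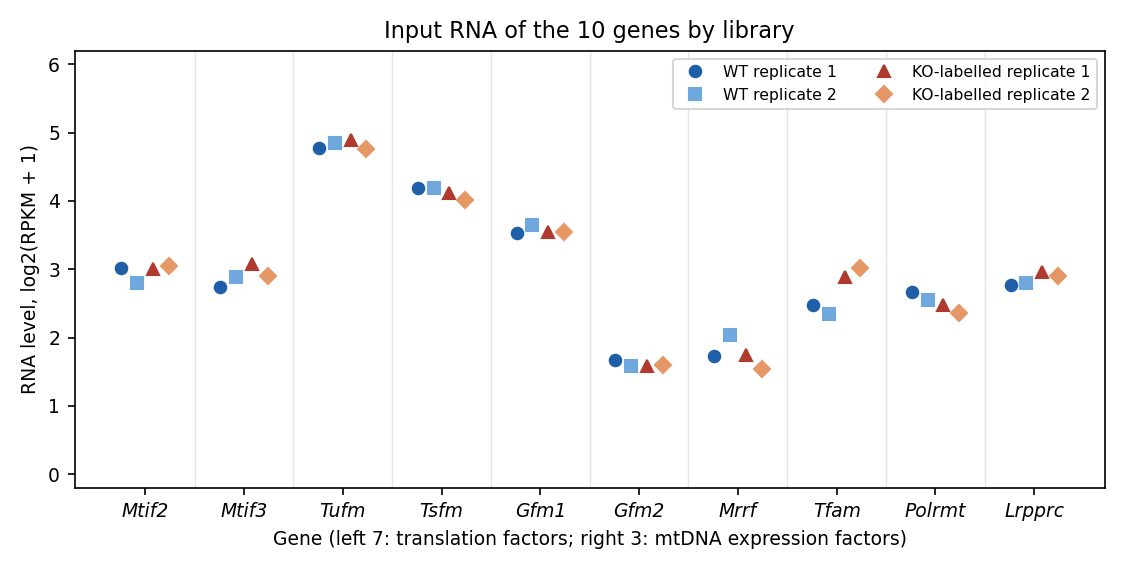
RNA level as log2(RPKM + 1) of each of the 10 genes in each of the 4 libraries; each point is 1 library. Both KO-labelled libraries lie above both WT libraries for Tfam, at 6.36 and 7.10 against 4.58 and 4.09 RPKM, while Tufm is the highest gene in every library.

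Of the factors of mitochondrial DNA expression, Tfam had the highest footprints in the WT libraries. Its RNA was 4.58 and 4.09 RPKM in WT and 6.36 and 7.10 RPKM in the KO-labelled libraries, from 389, 330, 520 and 537 reads. Both KO-labelled libraries lay above both WT libraries. RNA of Tfam rose by 0.53 on the log2 scale with an SE of 0.09 (limma adjusted p = 0.00234), with adjusted p between 2.73e-06 and 0.0242 over the 14 alternatives. This was 1 of 8 tested members, whereas 60.8% of all tested genes passed in RNA, 33.1% upward and 27.7% downward. The members' median RNA difference was 0.041, beside 0.043 for all tested genes.

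Cell type markers moved with the groups as well. Summed RNA of the 11 stem and progenitor markers was 136 RPKM in both WT libraries and 221 and 228 RPKM in the KO-labelled ones, and 6 of the 10 tested rose while none fell. Cd34, a progenitor surface protein, gave the largest part of this rise, at 4.41 and 4.71 RPKM in WT and 50.5 and 49.8 RPKM in the KO-labelled libraries. Meis1 and Ptprc were lower in both KO-labelled libraries, and Hoxa9 and Itgam overlapped. Summed RNA of the 9 T and NK cell markers was 19.6 to 19.8 RPKM in WT and 369 to 439 RPKM in the KO-labelled libraries, of which Nkg7 gave 426 and 356 RPKM, while Cd3d, Cd3e and Cd3g were under 1 RPKM in every library. Of 9 mast cell, basophil and eosinophil markers, the 7 in the table summed to 32.9 to 34.6 RPKM in WT against 483 to 500 RPKM, most of it Cpa3 and Prg2. The 9 erythroid markers summed to 81.6 to 90.1 against 429 to 523 RPKM, most of it the 4 globin genes, while Klf1 and Epor were under 1 RPKM in every library. The 5 of 8 stroma and endothelium markers in the table summed to 12.1 to 12.4 against 73.3 to 80.3 RPKM, most of it Pecam1 and Pdgfrb. The 4 of 7 megakaryocyte and platelet markers in the table summed to 1.15 to 1.64 against 20.8 to 22.2 RPKM, of which Itga2b gave 19.7 and 19.6 RPKM. In the other direction, the 10 myeloid differentiation markers summed to 20589 to 21281 RPKM in WT against 9718 to 10193 RPKM. Most of that was Lyz2, Elane, S100a8 and S100a9, and 8 of the 9 tested fell. Ly6g was higher in both KO-labelled libraries and Ltf overlapped. The 3 of 7 B cell markers in the table summed to 40.9 to 43.3 against 27.8 to 30.0 RPKM, most of it Cd79b. Cd79a (1.76 and 1.44 against 3.09 and 3.71 RPKM) and Vpreb1 (0.305 and 0.321 against 1.72 and 1.37 RPKM) were higher in the KO-labelled libraries. Of the markers found in the table, none was below 0.05 RPKM of RNA in every library. Listed markers absent from it could not be judged. The part of these markers in the rise of Tfam RNA was not tested, and in bulk samples a shift in the share of a cell type and a shift in RNA per cell cannot be told apart.

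Footprints of Tfam did not follow its RNA in both libraries. They were 59.5 and 71.5 RPKM in WT, from 39 and 35 reads, and 47.9 and 132 RPKM in the KO-labelled libraries, from 13 and 27 reads. KO replicate 1 lay below both WT libraries and KO replicate 2 above both, 2.76-fold apart (exact 95% interval 1.37 to 5.82, counting error only). The fitted log2 difference was 0.28 with an SE of 0.55 (limma adjusted p = 0.811, 95% interval -1.15 to 1.72). Without KO replicate 2 it was -0.439 and without KO replicate 1 it was 1.01, so the direction rested on a single library. TE of Tfam was 10.8 and 14.2 in WT and 6.64 and 16.4 in the KO-labelled libraries, which placed it at percentiles 95.9, 97.5, 89.5 and 98.2 of the 10195 genes in the order WT replicates 1 and 2, KO replicates 1 and 2. As for Tufm, these percentiles were not corrected for the unlike lengths of footprints and RNA.

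Lrpprc had the largest positive footprint difference of the 8 tested genes. Its footprints were 34.6 and 36.9 RPKM in WT and 75.6 and 41.1 RPKM in the KO-labelled libraries, from 127, 101, 115 and 47 reads, the most of any of the 10 genes. Both KO-labelled libraries lay above WT, KO replicate 2 by little and KO replicate 1 by far. The KO-labelled libraries stood 1.84-fold apart, with an exact 95% interval of 1.30 to 2.65 for counting error only, so they differed by more than their counts allow. Together they gave a log2 difference of 0.63 with an SE of 0.40 (limma adjusted p = 0.474), which was 0.195 without KO replicate 1 and 1.06 without KO replicate 2. RNA of Lrpprc was 5.84 and 5.98 RPKM in WT and 6.78 and 6.46 RPKM in the KO-labelled libraries, a log2 difference of 0.14 with an SE of 0.08 (limma adjusted p = 0.167). TE was 5.21 and 5.43 in WT and 9.85 and 5.64 in the KO-labelled libraries, a log2 difference of 0.49 with an SE of 0.40 (limma adjusted p = 0.63), or 0.084 and 0.889 without KO replicate 1 and 2.

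Polrmt had footprints of 9.12 and 7.57 RPKM in WT and 9.10 and 5.04 RPKM in the KO-labelled libraries, from 29, 18, 12 and 5 reads, and the groups overlapped. The fitted difference was -0.25 on the log2 scale with an SE of 0.43 (limma adjusted p = 0.789), and TE was 1.60 and 1.46 in WT against 1.81 and 1.18. Its RNA was 5.34 and 4.88 RPKM in WT and 4.58 and 4.13 RPKM in the KO-labelled libraries, lower in both, with a log2 difference of -0.19 and an SE of 0.09 (limma adjusted p = 0.112). RNA of the polymerase and of Tfam, its partner at the start of transcription, thus lay on opposite sides of WT. Summed over Tfam, Polrmt and Lrpprc, footprints took 222 and 235 CPM in WT and 385 and 288 in the KO-labelled libraries, of which Lrpprc gave 316 and 171 CPM.

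**Figure D4:**
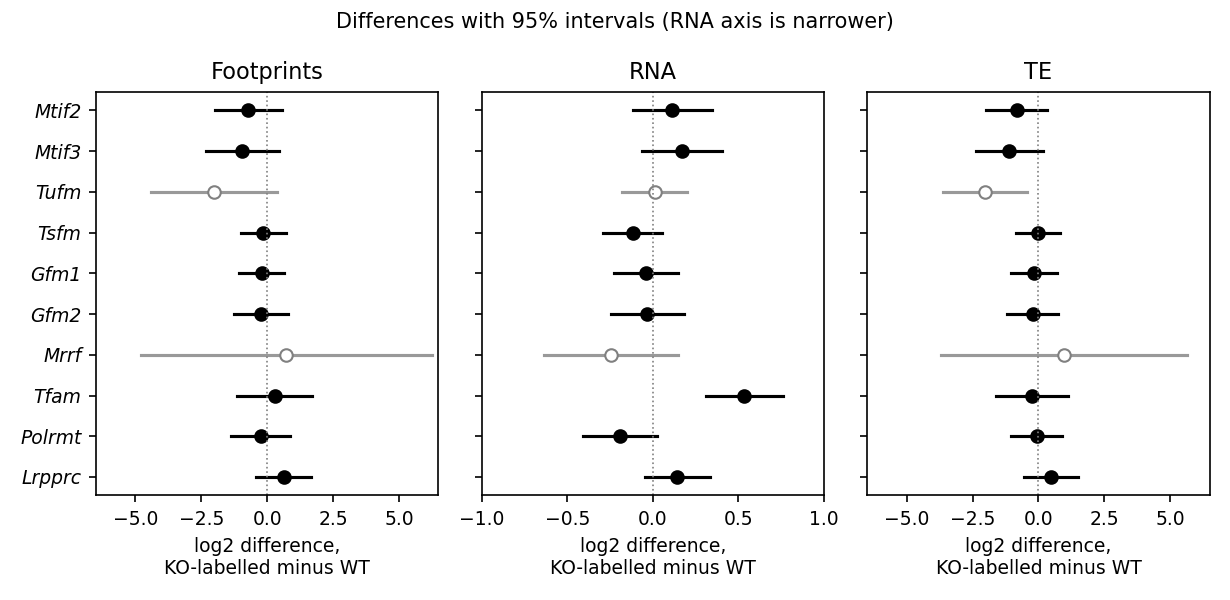
Log2 difference, KO-labelled minus WT, of footprints, RNA and TE for the 10 genes, with limma's 95% intervals (n = 2 libraries per group); the RNA axis is narrower. Open symbols mark Tufm and Mrrf, which the filter left out and which come from fits with no filter (footprints, TE) or a filter on RNA. Among the filled symbols, 1 interval leaves out 0, that of Tfam in RNA at 0.31 to 0.76.

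By mean footprint level per length, the order in WT was Tfam, Lrpprc, Tsfm, Mtif3, Gfm1, Mtif2, Mrrf, Gfm2, Polrmt and Tufm. The libraries of neighbours overlapped from Tsfm to Gfm1 and from Mtif2 to Gfm2, and were separate elsewhere in this order. In the KO-labelled libraries the order was the same but for Mrrf, which stood after Lrpprc, and Gfm1, which stood before Mtif3, and every neighbouring pair overlapped down to Gfm2. Polrmt and Tufm were the lowest in both groups, each separate from its neighbour above. By mean RNA level the order in WT was Tufm, Tsfm, Gfm1, Mtif2, Mtif3, Lrpprc, Polrmt, Tfam, Mrrf and Gfm2. Neighbours overlapped from Mtif2 to Lrpprc and were separate elsewhere. In the KO-labelled libraries the RNA order was the same except that Tfam stood above Lrpprc and Polrmt, where it overlapped with its neighbours Mtif3 and Lrpprc, and that Mrrf and Gfm2 overlapped. By TE, Tfam was the highest in WT at 12.5 ± 2.40, separate from Lrpprc at 5.32 ± 0.151, and Tufm the lowest at 0.245 ± 0.0114 (SD, n = 2 each). The TE order carries the unlike lengths of footprints and RNA, so it does not rank the genes by translation.

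The other genes of mitochondrial gene expression were described with lists of their own, whose counts in RNA stand beside the 33.1% of all tested genes that rose and the 27.7% that fell. Among 14 other factors of mitochondrial translation, 5 were tested, and in RNA 3 of them rose and none fell. They were Mrpl58, a release factor of stalled ribosomes, from 16.9 ± 0.149 in WT to 27.8 ± 0.813 RPKM (limma adjusted p = 0.00014; SD, n = 2 each), the release factor gene Mtrf1l (0.34 ± 0.09, SE, limma adjusted p = 0.013) and Guf1, a back-translocating elongation factor (0.32 ± 0.10, SE, limma adjusted p = 0.0234). Among 17 other factors of mitochondrial DNA transcription and replication, 5 were tested, and RNA of Polg, the replicative DNA polymerase, rose by 0.39 ± 0.08 on the log2 scale (SE, limma adjusted p = 0.00465) while 4 did not pass.

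Among 43 genes of mitochondrial RNA processing and modification, 26 were tested, of which RNA of 4 rose and of 6 fell, a smaller part than the 60.8% of all tested genes that passed. Rexo2, an oligoribonuclease, rose most, from 47.9 ± 2.20 to 108 ± 13.3 RPKM (SD, n = 2 each, limma adjusted p = 5.46e-05), with the pseudouridine synthase gene Trub2 (0.41) and the helicase gene Dhx30 (0.32) after it on the log2 scale. Grsf1, an RNA granule protein, fell most, from 13.6 ± 3.48 to 7.5 ± 1.18 RPKM (SD, n = 2 each, limma adjusted p = 0.00591), with Noa1 (-0.52), a GTPase of ribosome assembly, and Fastkd2 (-0.38), an RNA-binding protein, after it on the log2 scale. Among 9 nuclear regulators of mitochondrial genes, 6 were tested in RNA. Yy1 rose by 0.97 ± 0.18, Gabpa, a subunit of GABP, fell by 0.34 ± 0.09, and Nrf1 fell by 0.22 ± 0.08 on the log2 scale (SE, limma adjusted p = 0.00281, 0.0159 and 0.0404). In footprints and in TE, none of the tested genes of these 4 lists passed limma. In footprints 0, 1, 3 and 0 of them had an unadjusted p under 0.05, and in TE 0, 1, 3 and 1, in the order given. The medians in RNA were 0.323, 0.189, -0.088 and -0.018 in the order given, beside 0.043 for all tested genes.

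Of the 13 mitochondrially encoded mRNAs, on which these factors act, 7 were tested. RNA of the 7 rose, with log2 differences from 0.80 to 1.20, beside 33.1% of all tested genes that rose. The 7 genes are not independent of each other. For each of them, RNA was higher in KO replicate 2 than in KO replicate 1. For mt-Co1 it was 1052 and 830 RPKM in WT and 1270 and 2085 RPKM in the KO-labelled libraries. In footprints 0 of the 7 passed limma and 0 had an unadjusted p under 0.05, with differences from -1.19 to 0.51. In TE 0 passed limma and 2 had an unadjusted p under 0.05, beside 13.0% of all tested genes. The TE differences ran from -2.14 to -0.45, with a median of -0.706, beside -0.152 for all tested genes. Replicate footprints could stand far apart. They were 184 and 1606 RPKM for mt-Nd1 in the KO-labelled libraries and 820 and 193 RPKM for mt-Nd2 in WT. For mt-Nd6 they were closer, at 388 and 523 RPKM in WT and 527 and 657 RPKM in the KO-labelled libraries. TE overlapped between the groups for mt-Nd1 and mt-Cytb, and was lower for the other tested genes. Among the 6 that were not tested, RNA of mt-Nd4l (1.58 and 0.371 RPKM in WT, 0.548 and 0.593 in the KO-labelled libraries), mt-Atp6 and mt-Atp8 overlapped between the groups. Of these 6, 5 were listed at 0 footprints in every library (mt-Nd4l, mt-Co2, mt-Co3, mt-Atp6 and mt-Atp8). Their RNA was low as well. Over the 4 libraries it was 3.06 to 8.24 RPKM for mt-Co2, 3.37 to 9.66 for mt-Co3 and 6.39 to 18.3 for mt-Atp6. RNA of mt-Co1, a tested gene, was 830 to 2085 RPKM. Why these 5 genes took so few reads in both readouts was not tested, and no TE was read for them.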

How the data were processed

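The genes and lists were chosen with earlier results of these data known. The submitters' processing notes name HISAT2 2.1.0 beside CASAVA, DESeq2 and featureCounts, without saying which did what, and the human build hg38 for these mouse samples; they name no annotation. Fragments of micrococcal nuclease digests were sequenced per the labels' protocols. The deposited footprint values behaved as RPKM plus 1. The deposited TE is the ratio of that value to an RNA value with the same floor, per the file headers and the values, and RNA was taken as footprint value over TE minus 1. The authors' deposited p-value column agreed within 1e-06 with an unadjusted one-sided equal-variance test on TE in 16250 genes.

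Low values are whole multiples of what 1 read is worth, which gave whole reads for 10536 genes (tolerance 0.002 reads); a factor common to all libraries can be missed. Genes reaching 20 CPM in 2 or more libraries were tested with limma 3.58.1 (R 4.3.3) and a mean-variance trend on log2(RPKM + 1), group as the only term, two-sided, with Benjamini-Hochberg adjustment at 0.05. Fold changes on this scale understate changes of low genes. The log2 TE difference stands in for an interaction on counts, since input counts are no column of the table. The same genes were tested in RNA and TE, and 8 of the 10 genes passed the filter. Replicates differed by more than sampling noise, with a chi-square per gene of 5.80 (WT) and 19.5 (KO), and were kept as 2 each. Exact intervals are Poisson or conditional binomial, at 95%, for counting error only; the labels name no molecular identifiers. Alternatives were other pseudocounts, filters and scalings, limma-voom on the recovered reads, a replicate block and leaving out each library. Genes named are Rreb1, the 10 members and, per list, up to 3 that passed in each direction. The mitochondrial mRNAs and the markers were named after their values were seen. Scripts ran in Python 3.11.15 and were tested on simulated data. Same-numbered libraries had a correlation of deviations of 0.0226 in footprints and -0.335 in RNA, so numbers were not taken to pair them.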

Additional observations from a re-analysis of the deposited data

How the results depend on the processing

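The count of passing members was the same under every alternative run: 0 in footprints, 1 in RNA (Tfam) and 0 in TE. The number of all genes passing in footprints (68) was 110 with a pseudocount of 5, 0 with no filter on low values (1669 at an unadjusted p under 0.05), 18 with a filter on the mean CPM, and 0 to 1097 with a library left out: 0 without either WT replicate, 336 without KO replicate 1 and 1097 without KO replicate 2. In RNA (3882) it was 6747 with no filter and 6497 with a filter on RNA added after seeing the data. In TE (0, with 831 at an unadjusted p under 0.05) it was 1 with a pseudocount of 5 and 0 to 699 with a library left out.

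The replicate block gave 32 genes in footprints, 3480 in RNA and 0 in TE and changed no member's call. A crossed replicate block, added because of the negative correlation in RNA, gave 134, 4395 and 2.

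The members' median in footprints (-0.231) was -0.076 with quantile normalization and -0.063 with limma-voom. In RNA (0.041) it was -0.036 with the mean CPM filter, -0.01 with no filter and with a filter on RNA, and 0.011 to 0.055 with a library left out. In TE (-0.195) it was -0.058 with centring, -0.067 with quantile normalization and -0.324 to -0.093 with a library left out. Quantile normalization moved the median of all tested genes from -0.134 to -0.019 in footprints and from -0.152 to 0.01 in TE. The cause of these shifts was not tested.

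Of members that did not pass, some differences changed sign. In footprints Tsfm was 0.059 with limma-voom. With a library left out, Gfm2 ran from -0.494 to 0.002, Tsfm from -0.34 to 0.044, Tfam from -0.439 to 1.006 and Polrmt from -0.626 to 0.117. Gfm1 ran from -0.356 to -0.074 with no change of sign. In RNA Gfm2 ran from -0.08 to 0.016 and Gfm1 from -0.098 to 0.02. In TE Tsfm and Polrmt were 0.106 and 0.072 with centring, and 0.162 and 0.151 with quantile normalization. With a library left out in TE, Tsfm ran from -0.172 to 0.111, Polrmt from -0.377 to 0.247, Gfm1 from -0.376 to 0.024, Gfm2 from -0.51 to 0.081 and Tfam from -0.904 to 0.402. Where a library is left out, the lone one is assumed to vary like the others. Depth limits all these genes in footprints; Tufm, with 0 to 7 reads a library, had the fewest.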
